A study of Homo sapiens with 7 samples.

Results

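Peaks of PPARα chromatin immunoprecipitation in gene deserts, the long stretches of the human genome with no gene close by, are described here for HepG2, a hepatocellular carcinoma line of human origin. A peak was counted when its summit lay on chromosomes 1 to 22, outside every gene span and more than 100 kb from the nearest protein-coding or lncRNA gene of the RefSeq GRCh38.p14 gene table. The rule finds 8516 of the 149465 peaks in 6 lists. Merging peaks that overlap by 1 bp or more gave 90086 regions, of which 5120 were desert regions, and none of these also held a peak with its summit outside the rule. The lists came from 3 groups with 2 libraries each: PPARα+ERα, PPARα+ERβ and PPARα. All cells were transfected with an expression vector for PPARα and, from 48 h later, received the PPARα agonist at 10 µM for 2 h (written Wy13643 and Wy14643 in the labels). PPARα+ERα cells also carried a vector for estrogen receptor alpha and were first exposed for 45 min to its agonist PPT at 10 nM, and PPARα+ERβ cells carried one for estrogen receptor beta and were first exposed for 45 min to its agonist DPN at 10 nM. Vector and agonist of an estrogen receptor always came together, so their parts cannot be told apart, and every group carried added PPARα. Libraries 1 and 2 follow the order of deposit, and nothing says that they came from separate cultures. Each SD therefore measures variation between these libraries, which may be technical. A permutation p is the share of rearrangements of the library values that give a difference at least as large as the one observed. It speaks for these libraries and not for separate cultures. No list of the no-antibody sample was used here, and HepG2 identity cannot be checked from peak lists.

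PPARα is a nuclear receptor that binds DNA as a partner of the retinoid X receptor and switches on genes of fatty acid use in liver when a fatty acid or a fibrate-like agonist is bound. Estrogen receptors bind DNA as dimers at elements of their own. Gene deserts are often gene-poor, late-replicating DNA, and they commonly flank developmental transcription factors and cell adhesion genes of the nervous system, whose distant enhancers can lie in them. A peak far from any protein-coding or lncRNA gene therefore has no obvious target gene, and the genes named below are neighbours only.

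The lists held 1442 and 1628 desert peaks in the PPARα+ERα libraries, 907 and 1109 in the PPARα+ERβ libraries, and 1527 and 1903 in the PPARα libraries. As a share of all peaks of a library on these chromosomes this was 5.97% and 5.99% in the PPARα+ERα libraries, 5.33% and 4.89% in the PPARα+ERβ libraries, and 6.59% and 5.40% in the PPARα libraries. Both PPARα+ERβ libraries were below all others, although PPARα library 2 was close to PPARα+ERβ library 1 and their Wilson 95% intervals overlapped (5.17 to 5.64% and 5.00 to 5.67%). The mean was 5.98% ± 0.0123 with PPARα+ERα, 5.11% ± 0.311 with PPARα+ERβ and 5.99% ± 0.838 with PPARα (SD, n = 2). The mean share with PPARα+ERα fell by 0.0134 percentage points relative to PPARα (exact permutation test, two-sided p = 1, adjusted p = 1). With PPARα+ERβ it fell by 0.889 points relative to PPARα, and PPARα+ERα stood 0.875 points above PPARα+ERβ (exact permutation test, p = 0.333 for each, adjusted p = 0.5 over the 3 contrasts, and 0.333 is the smallest p that 2 libraries against 2 allow). Without PPARα library 1, the mean share with PPARα+ERα was 0.579 points above that with PPARα, and without PPARα library 2 it fell by 0.606 points, so the sign of that difference rests on 1 library. PPARα+ERβ minus PPARα was −0.296 points without PPARα library 1 and 0.0869 with low-background peaks alone (up to 3 times the genome-wide level), and PPARα+ERα minus PPARα+ERβ was −0.371 with high-background peaks alone, an alternative chosen after seeing the data.

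**Figure D1:**
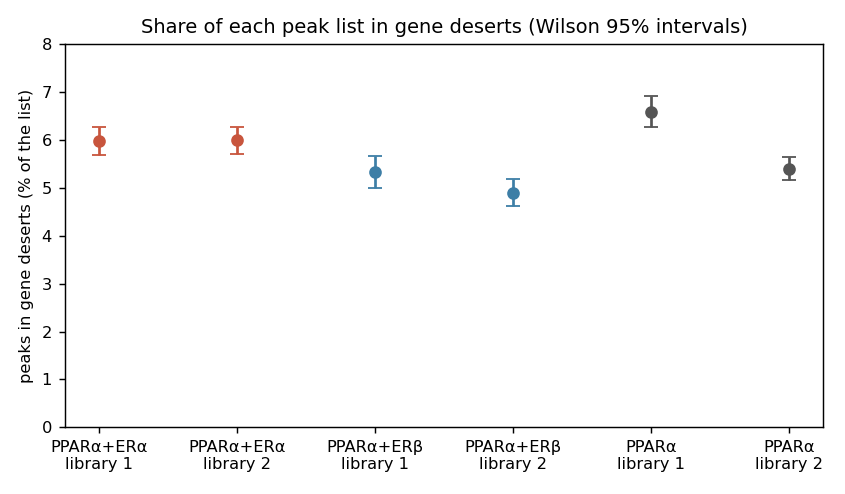
Share of each library's peaks on chromosomes 1 to 22 that lay in gene deserts, in percent, with Wilson 95% intervals, which cover counting error only. The PPARα+ERβ libraries sit at 5.33 and 4.89%, the PPARα+ERα libraries at 5.97 and 5.99%, and the PPARα libraries are far apart, at 6.59 and 5.40%.

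Depth, read from the lists as the genome-wide spacing of fragments implied by the peak caller's background, was one fragment per 780 and 725 bp with PPARα+ERα, 537 and 450 bp with PPARα+ERβ, and 537 and 471 bp with PPARα, so the PPARα+ERα libraries were the shallowest. The fragment number at a summit and the local background under it were solved from fold and p. The local background is given below as a multiple of the library's genome-wide level. At a region called in several libraries this multiple could be alike (19.8 and 20.7 with PPARα+ERβ, and 19.6 and 20.5 with PPARα, at the CNTN6 region below) or differ (5.138 and 3.914 in the PPARα+ERα libraries, 9.895 and 9.742 in the PPARα+ERβ libraries, and 9.817 and 6.035 in the PPARα libraries, at the region before LRFN5 called in all libraries). At the other desert regions called in all libraries it was alike, for example from 4.828 to 5.139 between TRIB2 and LRATD1 and from 2.414 to 2.57 after ZEB2.

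Desert held fewer peaks per Mb than the rest of the genome in all 6 libraries. The 1098 deserts in gaps of up to 2 Mb between neighbouring genes covered 191 Mb. They held 7.39 and 8.39 peaks per Mb with PPARα+ERα, 4.61 and 5.61 with PPARα+ERβ, and 7.78 and 9.64 with PPARα. The rest of the span from the first to the last gene of each chromosome, 2502 Mb, held 9.07 and 10.2 peaks per Mb with PPARα+ERα, 6.45 and 8.63 with PPARα+ERβ, and 8.66 and 13.3 with PPARα. Relative to the rest, desert density was 0.815 and 0.821 in the PPARα+ERα libraries, 0.715 and 0.650 in the PPARα+ERβ libraries, and 0.899 and 0.724 in the PPARα libraries. Among desert regions of all libraries together, density was similar across gaps below 2 Mb, at 25.6 regions per Mb in gaps up to 500 kb, 26.4 in gaps of 500 kb to 1 Mb and 26.9 in gaps of 1 to 2 Mb. Gaps of 2 to 5 Mb held 2.15 regions per Mb and the 5 gaps over 5 Mb held 0.247. These very long gaps can include unsequenced stretches, where no peak can be called, and centromeres, and neither length was separated here. The gaps of 2 to 5 Mb held 99 regions and those over 5 Mb held 15.

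Most desert peaks lay 100 to 200 kb from a protein-coding or lncRNA gene, and genes of other types could lie closer. Desert regions with a peak in both libraries numbered 508, 525 and 1088 with PPARα+ERα, PPARα+ERβ and PPARα. With distance taken from every gene they numbered 249, 282 and 575. The median distance to the nearest protein-coding or lncRNA gene was 178 and 171 kb with PPARα+ERα, 168 and 169 kb with PPARα+ERβ, and 171 kb in both PPARα libraries. Peaks more than 500 kb from such a gene made up 4.22% ± 0.283 of the desert peaks with PPARα+ERα, 4.97% ± 0.143 with PPARα+ERβ and 4.68% ± 0.231 with PPARα (SD, n = 2). At the border of the rule, the nearest members lay 100007 bp (PPARα+ERα library 2, fold 6.499) and 100016 bp (PPARα library 1, fold 2.97) from a gene, and the nearest peaks left out lay at 99997 bp (PPARα+ERα library 1, fold 4.32) and 99964 bp (PPARα library 2, fold 3.54). Fold values throughout are those deposited by the authors (summit against local background) and serve to order peaks inside 1 list.

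Desert peaks differed little from the other peaks of their own library, while desert peaks of different groups differed widely. The median number of fragments at a summit was 9 in desert peaks against 10 in other peaks of both PPARα+ERα libraries. It was 27 in both kinds of peak in PPARα+ERβ library 1 and 30 in both in library 2. With PPARα it was 37 against 35 in library 1 and 53 against 51 in library 2. Local background followed the same pattern. Its median was 1.28 in desert peaks of both PPARα+ERα libraries, against 1.72 and 1.57 in other peaks, 9.90 and 8.52 in desert peaks with PPARα+ERβ, against the same values in other peaks, and 13.98 and 16.9 in desert peaks with PPARα, against 13.5 and 16.4 in other peaks. Over the 6 libraries no mean difference between desert and other peaks passed the test. Fragments, background and width were lower in desert peaks of both PPARα+ERα libraries and higher in those of both PPARα libraries. Such differences cancel in a mean over all groups, and the SD includes the spread between groups. These tests therefore cannot decide whether desert and other peaks differ inside a group. The mean difference was 0.333 ± 1.37 fragments at the summit, 0.0442 ± 0.385 in relative local background, 1.75 ± 3.13 bp in width and 0.0771 ± 0.424 in −log10 q (SD, n = 6; exact sign-flip permutation tests, two-sided p = 0.75, 0.75, 0.375 and 0.625, adjusted p = 0.75 for each). The share of peaks also called in the other library of the group differed by 0.970 ± 4.42 percentage points (n = 6, exact permutation p = 0.75, adjusted p = 0.75). Both libraries of a group count the same shared regions in this last measure. Its 6 values are therefore linked in pairs and not independent, so its p cannot decide whether recurrence differed.

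**Figure D2:**
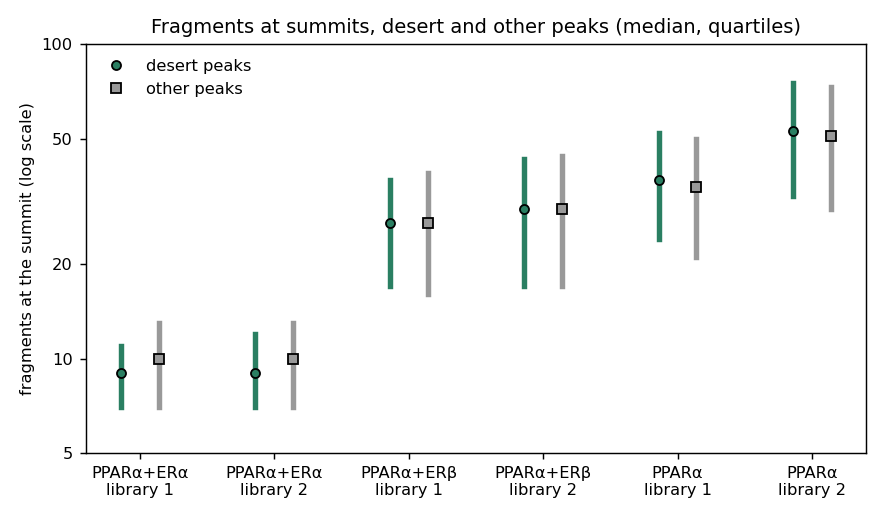
Fragments at peak summits on a log scale, for desert peaks (green circles) and the other peaks (grey squares) of each library, with bars from the lower to the upper quartile. Desert and other medians differ by at most 2 fragments within a library, whereas libraries range from 9 with PPARα+ERα to 53 with PPARα library 2.

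Within a group, recurrence was counted as the share of regions with a peak in either library that were called in both. By this share, desert regions were much like other regions with PPARα+ERα and with PPARα+ERβ, and higher with PPARα. Occupied regions of a group are those called in library 1 and also in library 2. With PPARα+ERα, 508 desert regions were occupied, 19.8% of the 2561 with a peak in either library, against 20.8% outside deserts. With PPARα+ERβ, 525 of 1491 were occupied (35.2%, against 33.6% outside), and with PPARα 1088 of 2341 (46.5%, against 41.4% outside). Counted by library, recurrence with PPARα went opposite ways. In library 1, 71.3% of desert peaks were also called in library 2, against 74.3% of other peaks. In library 2, 57.2% were also called in library 1, against 48.3%. With PPARα+ERβ the values were 57.9% against 58.8% in library 1 and 47.3% against 43.9% in library 2. With PPARα+ERα both libraries were lower in deserts. The Jaccard index, the regions shared by a pair of libraries over those found in either, averaged 0.0320 in deserts between PPARα+ERα and PPARα+ERβ libraries, 0.0175 between PPARα+ERα and PPARα, and 0.309 between PPARα+ERβ and PPARα, with 0.0311, 0.0164 and 0.315 outside deserts. PPARα+ERα libraries therefore shared few sites with the other groups in deserts, as they did elsewhere, and these indices are descriptions without a test.

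Of the 1727 desert regions occupied in any group, 488 (28.3%) were occupied with PPARα+ERα only, 142 (8.22%) with PPARα+ERβ only and 709 (41.1%) with PPARα only. Another 368 (21.3%) were occupied with PPARα+ERβ and PPARα, 9 with PPARα+ERα and PPARα+ERβ, 5 with PPARα+ERα and PPARα, and 6 in all 3 groups. Outside deserts the shares were 29.0% for PPARα+ERα only, 11.9% for PPARα+ERβ only, 36.4% for PPARα only and 21.5% for PPARα+ERβ with PPARα. The small sets made up 0.521% (PPARα+ERα with PPARα+ERβ), 0.290% (PPARα+ERα with PPARα) and 0.347% (all 3) in deserts, against 0.622, 0.134 and 0.422% outside. Desert regions of PPARα lacking a peak in any other library made up 37.2% of those occupied (405 of 1088, Wilson 95% interval 34.4 to 40.1%), against 29.8% outside deserts. For PPARα+ERα the share was 88.4% in deserts and 89.9% outside, and for PPARα+ERβ 8.57% and 11.2%.

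**Figure D3:**
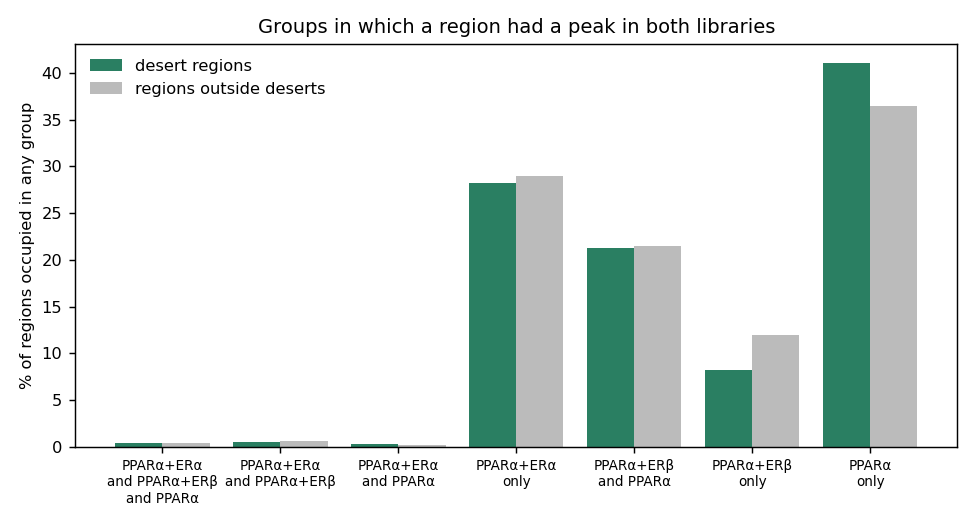
Percent of regions occupied in any group that had a peak in both libraries of the groups named under each pair of bars, for desert regions (green, 1727 regions) and regions outside deserts (grey, 27511 regions). The bars are of like height except that PPARα only is higher in deserts (41.1 against 36.4%) and PPARα+ERβ only is lower (8.22 against 11.9%).

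PPARα+ERα was set against PPARα to find sites that differ once ERα and PPT are added. In deserts, 478 of the 4773 regions with a peak in any of the 4 libraries were occupied with PPARα+ERα and had no PPARα peak (10.0%, where 10.2% of all regions were called), and 1039 had the reverse (21.8%, where 20% of all regions were called). Both shares are near those of all regions. The PPARα+ERα regions ranked highest included a pair in one desert of chromosome 2 between SLC8A1, the sodium-calcium exchanger, and PKDCC, a secreted protein kinase. They lay at chr2:41128966-41129517, with fold 13.7 and 14.8 from 18 and 20 fragments, and at chr2:41240000-41240548, with fold 12.2 and 10.4. None of the other 4 libraries had a peak at either. The others were chr2:123354623-123355006, between TSN and CNTNAP5, a neurexin-family adhesion gene (fold 14.9 and 12.7), chr7:67909662-67910008, between SPDYE21 and AUTS2, a neurodevelopmental chromatin regulator (11.0 and 11.6), and chr2:192900503-192900858 124 kb from the prostate lncRNA gene PCGEM1 (11.5 and 17.6). All 5 stood on a local background of 1 to 3.13 times the genome-wide level, and 4 of them lay on chromosome 2.

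Of the 5 PPARα regions ranked highest among those without a PPARα+ERα peak, 4 stood on a background of more than 12 times the genome-wide level. The region ranked highest, chr3:1520657-1521221, lay between CNTN6 and CNTN4, genes of neuronal contactins, with 98 and 131 fragments in the PPARα libraries on a background of 19.6 and 20.5 (fold 7.89 and 8.86). PPARα+ERβ libraries also had a peak there (fold 4.77 and 4.34). So did they at chr2:193610452-193610957, between TMEFF2 and SLC39A10 (PPARα fold 5.82 and 6.33), at chr12:60937325-60937843, before TAFA2 (22.1 and 18.2, on a background of 2.45 and 3.62), and at chr5:164172899-164173482, between MAT2B, which regulates S-adenosylmethionine synthesis in liver cells, and the teneurin gene TENM2 (9.98 and 9.70). The fifth, chr14:43187208-43187618 between LRFN5 and FSCB, had 161 and 218 fragments with PPARα on a background 82.2 and 80.9 times the genome-wide level (fold 3.28 and 3.93) and no peak with PPARα+ERβ. Peaks on a background of up to 3 times that level made up 79.4 and 81.8% of desert peaks with PPARα+ERα and 14.3 and 9.56% with PPARα, and with such peaks alone 73 PPARα regions lacked a PPARα+ERα peak. The part of background in these counts was not tested further.

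PPARα+ERβ was set against PPARα for the same question with ERβ and DPN. Among the comparisons of groups, desert regions departed most from the rest here. Of 2787 desert regions, 63 had peaks in both PPARα+ERβ and neither PPARα library (2.26%, where 2.78% of all regions were called), and 409 had peaks in both PPARα and neither PPARα+ERβ library (14.7%, where 10.3% of all regions were called). Outside deserts the share with PPARα peaks alone was 10.0%, so deserts held 4.67 percentage points more. The excess was 3.03 points without PPARα library 1 and 9.30 points without PPARα library 2, 2.99 points with lists of equal length, and −0.734 points with low-background peaks alone, where 16 desert regions remained. A call of this kind needs a peak in both PPARα libraries, and 46.5% of PPARα regions had this in deserts against 41.4% outside. Counted by library, that recurrence went opposite ways, as given above. The part of that recurrence in the excess was not tested, nor was the excess itself.

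The 409 regions were led by the LRFN5 region at chr14:43187208-43187618. The 5 ranked highest included a second one between the same genes, chr14:42633166-42633557, with 120 and 173 fragments on a background of 65.0 and 62.8. The second by rank was chr10:56179621-56180009, between PCDH15, a protocadherin of hair cells, and ZWINT, a kinetochore gene, with 66 and 106 fragments (fold 7.27 and 10.3). A region at chr5:165908931-165909344, between MAT2B and TENM2, had 44 and 73 fragments (fold 7.44 and 9.81), and one at chr2:123774505-123775016, between TSN and CNTNAP5, had 61 and 88 (fold 4.67 and 5.97). None of these 5 had a peak with PPARα+ERα. The 63 PPARα+ERβ regions were led by chr2:147145750-147146202, between ZEB2 and ACVR2A, an activin receptor gene, with fold 12.7 and 9.80 and also a peak in PPARα+ERα library 1 (6.26). Next were chr20:54835370-54836047, between the adaptor gene DOK5 and the synapse organiser gene CBLN4 (5.77 and 7.93, and 4.60 in PPARα+ERα library 2), and chr2:164365915-164366240, 126 kb from GRB14, an adaptor that dampens insulin receptor signalling (4.75 and 3.91). Then came chr1:88276908-88277418, between LMO4 and PKN2 (8.88 and 8.29), and chr11:26030553-26030900, 158 kb from ANO3 (5.28 and 6.31).

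Set against each other, the co-transfected groups gave 458 desert regions with peaks in both PPARα+ERα and neither PPARα+ERβ library (11.8% of 3865, where 11.6% of all regions were called) and 460 of the reverse (11.9%, where 12.7% of all regions were called). The PPARα+ERα regions ranked highest were the same 5 named above, at SLC8A1, CNTNAP5, AUTS2 and PCGEM1. The PPARα+ERβ regions were led by chr2:210862731-210863169, 184 kb from CPS1, the enzyme that starts the urea cycle in hepatocytes, with fold 14.3 and 16.1. Next were chr20:7592720-7593295, between BMP2 and HAO1, a liver gene for glycolate oxidase (5.96 and 5.94), chr15:37798917-37799449, between MEIS2, a homeobox gene, and TMCO5A (13.5 and 15.0), chr2:147666409-147666932, 178 kb from ACVR2A (7.51 and 6.98), and chr1:82338936-82339394 345 kb from the latrophilin gene ADGRL2 (15.1 and 15.2). All 5 also had peaks in both PPARα libraries, with fold 12.3 and 13.3 at CPS1 and 18.3 and 16.1 at ADGRL2. The PPARα+ERα libraries enter this comparison and the one with PPARα, and the PPARα libraries enter both comparisons with co-transfected cells, so these sets are linked through the libraries they share.

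Peaks in all 6 libraries lay in 6 desert regions, of 122 regions genome-wide, or 0.117% of desert regions against 0.137% of regions outside. The first by rank was chr2:35842813-35843290, in the desert before CRIM1, a gene for a membrane protein that binds BMPs. Its fold was 12.7 and 7.80 in the PPARα+ERα libraries, 19.7 and 16.1 in the PPARα+ERβ libraries, and 22.7 and 20.4 in the PPARα libraries, on a background of 1.207 to 1.285. By −log10 q it stood at percentile 98.8 and 80.9 of the PPARα+ERα lists, 99.8 and 98.7 of the PPARα+ERβ lists, and 99.8 and 96.1 of the PPARα lists. The others lay between DSEL and TMX3 (chr18:68091353-68091779), between TRIB2 and LRATD1 (chr2:14028134-14028668), before LRFN5 (chr14:41402984-41403445), between CSMD3 and TRPS1, a transcriptional repressor gene (chr8:114473342-114473878), and after ZEB2, a regulator of epithelial-mesenchymal transition (chr2:145445339-145445746). Of the 6, 3 lay on chromosome 2, and fragments at their summits ranged from 8 to 50.

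Peaks were spread over many deserts. Of 1117 deserts between neighbouring genes, 842 held at least 1 region, and 301 held a region occupied with PPARα+ERα, 308 with PPARα+ERβ and 492 with PPARα. Of the deserts occupied with PPARα+ERα, 77.7% also held an occupied PPARα region, against 44.0% of all deserts, without regard to desert length. Of the PPARα+ERα desert regions themselves, 2.17% were occupied with PPARα, near the 1.84% outside deserts. The most regions in a desert were 46, in 2 deserts, one of them between LRFN5, a synaptic adhesion gene, and FSCB on chromosome 14 (gap 41936456 to 43026393). Its 46 regions included 14 occupied with PPARα+ERα, 9 with PPARα+ERβ and 17 with PPARα. Of these, 7 were shared by PPARα+ERβ and PPARα, 1 by PPARα+ERα and PPARα+ERβ, and 0 by PPARα+ERα and PPARα. The other deserts with many regions lay after IGFBP7 on chromosome 4 (46 regions), between TMEFF2 and SLC39A10, a zinc transporter gene, on chromosome 2 (45), between NSUN3 and EPHA6 on chromosome 3 (42), between CDC73 and KCNT2 on chromosome 1 (39) and before TAFA2 on chromosome 12 (38). In none of these 6 was a region occupied with both PPARα+ERα and PPARα. Such regions were few in all deserts (11 of 508 occupied with PPARα+ERα) and outside them (153 of 8295). Per Mb, the densest deserts of at least 200 kb lay between GOT2 and CDH8 (58.6 regions per Mb), CCDC179 and LUZP2 (54.9), DSEL and TMX3 (52.9), and STXBP6 and NOVA1 (52.5).

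**Figure D4:**
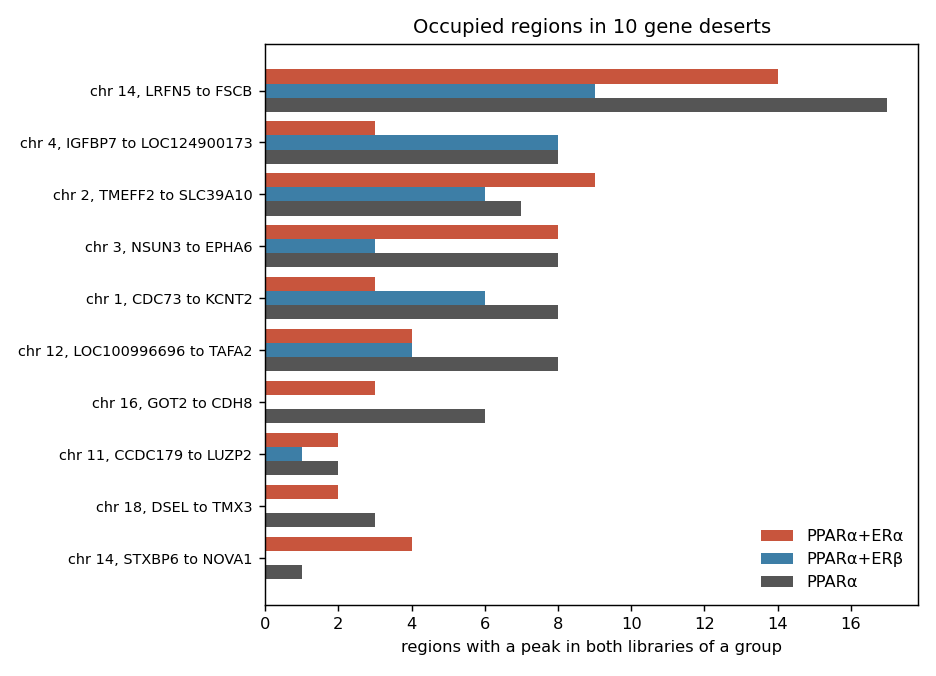
Occupied regions per group, in the 6 deserts with the most regions and, below them, the 4 with the most regions per Mb among those with at least 200 kb of desert, named by chromosome and by the nearest protein-coding gene on either side. The desert from LRFN5 to FSCB leads in every group, with 14, 9 and 17 regions.

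Protein-coding genes flanked a desert in 1288 of 18973 cases (6.79%). Of 33 PPARα and fatty acid oxidation targets, 1 flanked a desert as its nearest protein-coding gene, namely PPARGC1A, the coactivator of fasting metabolism, and its 0.0837 Mb of desert held no occupied region in any group. Of 29 hepatocyte genes in the table, 2 did so, or 6.90%, near the share of all protein-coding genes (FOXA2 and ONECUT1, both liver transcription factors), and the FOXA2 desert held 1 region occupied with PPARα+ERα and 1 with PPARα. Of 24 estrogen response genes, 3 flanked deserts, and the 0.240 Mb of those deserts held no occupied region, a length too short to read anything from. By contrast, 65 of 72 neuronal adhesion and synapse genes and 34 of 54 developmental transcription factors flanked deserts. Those lists were drawn up with such neighbourhoods in mind, so this is no independent evidence.

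The deserts beside neuronal adhesion genes held occupied regions at about the density of all deserts. They held 3.23, 3.02 and 6.21 occupied regions per Mb with PPARα+ERα, PPARα+ERβ and PPARα, against 2.61, 2.67 and 5.55 in all deserts in gaps up to 2 Mb. Deserts beside developmental transcription factors held 3.13, 1.39 and 3.94 per Mb, from 27, 12 and 34 regions. Among these genes, SOX9, a regulator of cartilage and bile duct cells, flanked a desert with 5 regions occupied with PPARα+ERα. SOX14 led with PPARα, at 4 regions, and NR2F2, a nuclear receptor gene, and POU3F3 with PPARα+ERβ, at 2 each. Among adhesion genes LRFN5 led in all groups. EPHA6 followed with PPARα+ERα (8 regions in one desert), LINGO2 with PPARα+ERβ (6), and CNTNAP5, EPHA6, FLRT2 and LINGO2 with PPARα (8 each). In the LINGO2 desert, 5 regions were occupied with both PPARα+ERβ and PPARα.

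By chromosome, PPARα+ERα desert peaks stood apart on chromosomes of which HepG2 cells are known to carry extra copies. Chromosomes 2, 6, 14, 16, 17 and 20, which are reported as gained in this line, held 63.7 Mb of desert, and the others 174 Mb. The density of desert peaks on the gained over that on the other chromosomes was 1.49 and 1.53 in the PPARα+ERα libraries, 1.09 and 1.25 in the PPARα+ERβ libraries, and 1.16 and 1.03 in the PPARα libraries. The PPARα+ERα values lay above all others. Their mean of 1.51 ± 0.0251 exceeded that of PPARα, 1.10 ± 0.0886, by 0.411, and that of PPARα+ERβ, 1.17 ± 0.116, by 0.341, while PPARα+ERβ exceeded PPARα by 0.0704 (SD, n = 2 each; exact permutation test, two-sided p = 0.333, 0.333 and 0.667). On chromosome 2 alone lay 14.7 and 15.1% of desert peaks with PPARα+ERα, 10.1 and 10.6% with PPARα+ERβ, and 10.8 and 9.67% with PPARα. The gained chromosomes did not all go this way. Chromosome 20 held 4.62 and 6.76 desert peaks per Mb with PPARα+ERα against 6.76 and 7.65 with PPARα, and chromosome 6 averaged 7.44 against 7.74. Peaks outside deserts behaved alike in the PPARα+ERα lists, with 35.4 and 35.9% of desert peaks on gained chromosomes against 35.6 and 34.7% of the others. The shares were 28.6 and 31.4% against 32.2 and 31.9% with PPARα+ERβ, and 29.8 and 27.5% against 31.0 and 30.0% with PPARα. Copy number was not measured here, and the part of the lower fragment numbers of the PPARα+ERα peaks in this ratio was not tested.

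**Figure D5:**
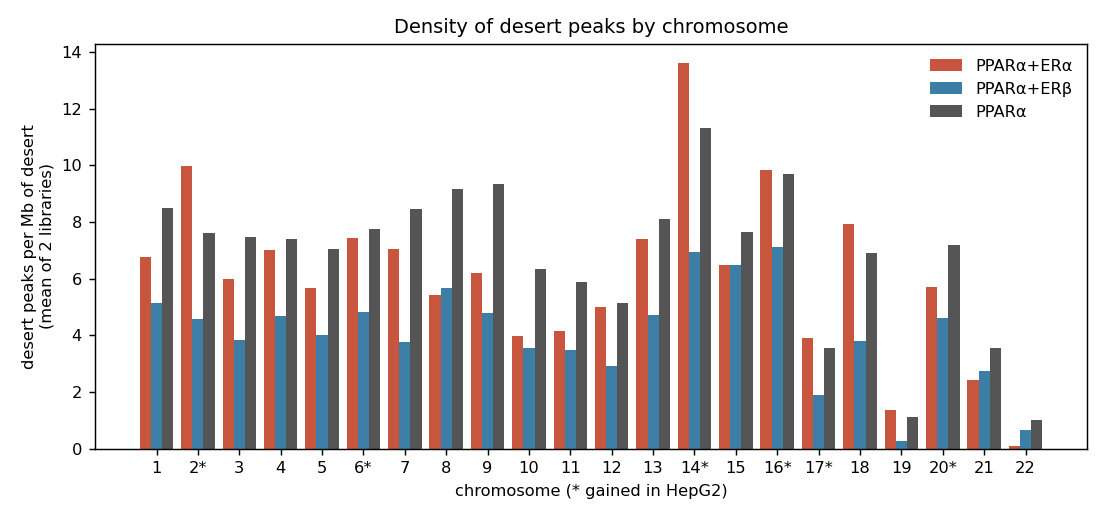
Desert peaks per Mb of desert on each chromosome, as the mean of the 2 libraries of a group, leaving out gaps over 5 Mb. Asterisks mark chromosomes reported as gained in HepG2. PPARα+ERα is the highest group on chromosomes 2, 14, 16, 17, 18 and 19, and PPARα on the others.

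The occupied regions farthest from a protein-coding or lncRNA gene lay 793 to 1853 kb away. With PPARα+ERα these were chr6:60650882-60651202 (892 kb from KHDRBS2, fold 11.5 and 13.4) and chr6:60671080-60671431 (871 kb, fold 5.00 and 3.37), between PRIM2 and KHDRBS2. With PPARα+ERβ they were chr6:60573905-60574377, in the same gap (968 kb, fold 8.20 and 6.44), which PPARα libraries also held (6.30 and 12.5), and chr4:59957197-59957550 (793 kb). With PPARα they were chr3:91334329-91334872 and chr3:91302323-91302836, 1853 and 1820 kb from EPHA3, the second also with a peak in PPARα+ERβ library 2. The regions on chromosomes 6 and 3 lay in gaps of 3504 and 4391 kb. Whether they stand in centromere sequence was not tested. The widest occupied desert region with PPARα, chr20:56773713-56774800 between TFAP2C and BMP7, had 36 fragments in PPARα+ERα library 1 and no peak in library 2, 95 and 117 with PPARα+ERβ, and 134 and 196 with PPARα. Its background was 24.3 times the genome-wide level in PPARα+ERα library 1 and 60.1 to 63.1 times in the PPARα+ERβ and PPARα libraries. The widest with PPARα+ERα was chr5:121465744-121466728, between PRR16 and FTMT, the mitochondrial ferritin gene (fold 7.19 and 9.75), and with PPARα+ERβ chr4:62855518-62856427, between ADGRL3 and TECRL (fold 2.62 and 2.12).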

How the data were processed

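Per the submitters' processing notes the builds were hg38 and GRCh38.p13, and the tools included MACS2 2.2.7.1, Bowtie 1.0.1 and Trim Galore 0.6.4, listed without their roles. The control used is not given in the sources used here. Each deposited list holds one called peak per line for 1 library. The authors' score equals the −log10 q multiplied by 10 with decimals dropped, give or take 1, the deposited fold is a ratio of a summit to its local background, and the deposited −log10 p and −log10 q belong to the summit. No test or ranking set fold of one list against fold of another. Folds quoted for several lists at the same region are not to be compared with each other.

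Scripts ran in Python 3.11.15 with SciPy 1.17.1 for the tests, pandas 2.3.3, NumPy 2.4.6 and, for plots, Matplotlib 3.10.9. The fragment number at each summit and the local background came from solving the deposited fold, with a pseudocount of 1 in numerator and denominator, together with the Poisson upper tail behind the −log10 p, and 100% of peaks had a whole-number solution to within 0.001. The lowest background of a list is its genome-wide level, and spacing is the shortest peak width over that level, which approximates depth without counting reads. Genes came from the RefSeq GRCh38.p14 table, in which 676 genes on chromosomes 1 to 22 stand at positions on separate scaffolds and were left out. Steps were tested on simulated data, where 100% of fragment numbers and all planted desert regions were recovered. Each planted region had a peak in every library of its group, without missed or false calls. Its recovery therefore checks the counting only, and not the sets found in lists that share few regions.

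Library values were compared by exact two-sided permutation tests with a threshold of 0.05. Benjamini-Hochberg adjustment was made over the share contrasts and over the measures of desert against other peaks. The tests on gained chromosomes and on the flagged differences were not adjusted. Sets of regions were counted without a test. Regions were named by a rule that takes, per comparison and direction, the 5 ranked highest by the lower within-list percentile of −log10 q, those in all 6 libraries, the deserts with most regions, and the farthest and widest. The members, lists and tests were chosen with earlier results of these data known. No sequence or motif was examined, as no genome was used here. Wilson intervals cover counting error only.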

Additional observations from a re-analysis of the deposited data

Results flagged for a closer look

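Desert minus other peaks moved in opposite directions in the PPARα+ERα and PPARα libraries for 3 measures, with both libraries of a group on the same side. The median number of fragments at the summit was 1 lower in desert peaks with PPARα+ERα and 2 higher with PPARα, a difference of −3. Relative local background differed by −0.359 with PPARα+ERα and 0.4915 with PPARα, a difference of −0.8505. Median width differed by −0.75 bp with PPARα+ERα and 5.5 bp with PPARα, a difference of −6.25 bp. For −log10 q the PPARα+ERβ and PPARα libraries stood on opposite sides, at −0.209 and 0.606, a difference of −0.815. For each of the 4, the exact permutation test over 4 libraries gave its smallest possible p of 0.333, so none could pass.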

How the results depend on the processing

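Of 372 values under 20 settings, 246 were labelled the same, 100 moved and 26 reversed. A count was labelled the same when it stayed within a factor of 1.5 of its main value. No share difference could cross the test threshold, because its smallest possible p was 0.333. Some values could not change, as the library left out did not enter them. An example is the 508 regions occupied with PPARα+ERα when a PPARα library was left out. The 246 are therefore no measure of how stable the results are. Counts below are of desert regions, in the order occupied with PPARα+ERα, PPARα+ERβ, PPARα and in all 3 groups, then PPARα+ERα without PPARα and PPARα without it, PPARα+ERβ without PPARα and PPARα without it, and PPARα+ERα without PPARα+ERβ and the reverse. They were 1399, 1397, 2864, 20, 1319, 2727, 157, 1016, 1269 and 1214 with distance from protein-coding genes only, 961, 1010, 2078, 12, 905, 1979, 114, 750, 873 and 882 beyond 50 kb, 199, 206, 433, 1, 186, 415, 21, 171, 180 and 186 beyond 200 kb, and 20, 25, 52, 0, 19, 49, 3, 22, 18 and 21 beyond 500 kb. With distance from every gene they were 249, 282 and 575 occupied, then 229, 548, 31, 210, 219 and 247. These distances change which peaks enter. At −log10 q of 5 or more, the PPARα+ERα counts were 270 occupied, 259 without PPARα and 252 without PPARα+ERβ. With lists of equal length, PPARα+ERα had 326 and PPARα 623 occupied, 1 was in all groups, and the others were 317, 612, 207 and 303, in the order PPARα+ERα without PPARα, PPARα without PPARα+ERα, PPARα without PPARα+ERβ and PPARα+ERα without PPARα+ERβ. Leaving out the gained chromosomes gave 287 with PPARα+ERα, 2 in all groups, 271 without PPARα, 262 without PPARα+ERβ, and 41 with PPARα+ERβ and not PPARα. Low background alone left 106 with PPARα+ERβ, 100 with PPARα, 73 and 16 with PPARα and not PPARα+ERα or PPARα+ERβ, 27 with PPARα+ERβ and not PPARα and 67 with it and not PPARα+ERα. High background alone, chosen after seeing the data, left 63 with PPARα+ERα, 2 in all groups, 60 without PPARα, 55 without PPARα+ERβ, and 35 with PPARα+ERβ and not PPARα.

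The share difference PPARα+ERα minus PPARα reversed to 0.422 points with protein-coding genes only and 1.28 with low background, PPARα+ERβ minus PPARα to 0.0869 with low background, and PPARα+ERα minus PPARα+ERβ to −0.00144 beyond 500 kb and −0.371 with high background. Desert minus other medians reversed as follows. Local background was −0.144 with low background, −1.50 beyond 500 kb, −0.521 beyond 200 kb and −0.319 from every gene. Fragments were −0.333 with low background, −2 beyond 500 kb, −0.167 beyond 200 kb and −0.167 with high background. Width was −1.42 bp with low background. The −log10 q was −0.351 beyond 500 kb and −0.00402 with high background. The share also called in the other library was −1.05 points with low background, −0.167 beyond 500 kb and −0.368 with high background. The excess of PPARα regions without PPARα+ERβ peaks was −0.734 points with low background. The cause was not tested.

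Leaving out each library in turn, which counts a group by its remaining library, gave these ranges: share differences −0.606 to 0.579, −1.48 to −0.296 and 0.656 to 1.09 points for PPARα+ERα minus PPARα, PPARα+ERβ minus PPARα and PPARα+ERα minus PPARα+ERβ; counts, in the first order above, of 508 to 1628, 525 to 1109, 1088 to 1903, 7 to 20, 478 to 1549, 1039 to 1833, 63 to 301, 409 to 1035, 458 to 1505 and 460 to 963. Desert minus other medians ranged from −0.0474 to 0.141 for background, 0 to 0.6 for fragments, 0.7 to 2.3 bp for width, −0.0315 to 0.159 for −log10 q and −0.00386 to 2.09 points for recurrence. No paired analysis was possible because the library numbers follow the order of deposit only. PPARα+ERα libraries were the shallowest, and the part of depth in their calls was not tested.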
